A study of Schizosaccharomyces pombe with 7 samples.

Results

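The meiotic genes mei4, rec8, rep1 and spo5 of fission yeast (Schizosaccharomyces pombe) lie on the arms of chromosome II, and their probes were those with a midpoint in the gene or within 1 kb on either side. Together they held 330 of the 43993 probes of the array, 84 at mei4 and 82 at each of rec8, rep1 and spo5, and they were 4 of 2219 annotated genes with at least 2 probes. The gene bodies alone held 44 probes in mei4 and 42 in each of rec8, rep1 and spo5, and 0 of the 330 probes had a sequence repeated elsewhere in the reference.

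The study measured where newly made histone H3 entered chromatin, by chromatin immunoprecipitation on 60-base microarrays (ChIP-chip) of FLAG-tagged H3, and the groups were wild type (3 arrays), fft3Δ (2 arrays), clr3Δ (1 array) and fft3Δ clr3Δ (1 array, below the double deletion). All cells were arrested in S phase by hydroxyurea (HU, 15 mM), an inhibitor of DNA synthesis, for 4 h in medium with 8% glucose. They then spent 2 h in 4% sucrose, with HU still present, which turned on the tagged H3, before fixation at 30 °C with formaldehyde (1%). All groups carried the inducible tagged H3, so what was read is H3 deposited during an arrest and not H3 of cycling or meiotic cells, and the labels do not say whether arrays of a group came from separate cultures, so the spread behind each p-value may be technical.

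In growing cells the meiotic programme of fission yeast is kept off partly at the RNA level: the YTH-domain protein Mmi1 binds meiotic transcripts through short repeated hexamers and hands them to the nuclear exosome for decay. Several such genes, mei4 among them, are known to carry islands of histone H3 lysine 9 methylation on the chromosome arms, called facultative heterochromatin because it can be removed, in contrast to the constitutive heterochromatin of centromere repeats and subtelomeres. Fft3 belongs to the SNF2 remodellers and is known to limit histone exchange in heterochromatin, and Clr3 is a histone deacetylase of the SHREC complex that acts there. Neither transcripts nor histone modifications were measured on these arrays, so whether the 4 genes carried such an island in these cells was not tested.

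The members act at different steps of meiosis. Rep1 is an activator that works with the MBF factor to turn on genes for premeiotic DNA synthesis, and Rec8 is the kleisin subunit of the meiotic cohesin complex, which holds sister chromatids together. Mei4 is a forkhead transcription factor that turns on genes of the meiotic divisions and spore formation, and Spo5 is an RNA-binding protein needed for meiotic progression and sporulation. On the ASM294v3 reference all 4 are transcribed from the plus strand: mei4 (SPBC32H8.11) at II:1473068-1475285 in 1 exon with a 5′ UTR of 126 and a 3′ UTR of 538 bases, and rec8 (SPBC29A10.14) at II:2568938-2570993 in 5 exons with a 3′ UTR of 183 bases. The gene rep1 (SPBC2D10.06, also called rec16) lies at II:2976698-2978838 in 1 exon with UTRs of 468 and 254 bases, and spo5 (SPBC29A10.02) at II:2536150-2538254 in 3 exons with UTRs of 71 and 227 bases. Antisense long noncoding RNAs are annotated across much of mei4 (SPNCRNA.5202, overlapping 1479 bases), rec8 (SPNCRNA.5714, 1859 bases) and, with shorter ones, rep1, and ChIP signal belongs to the DNA of both strands.

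Coding sequences are shown here to display matches to the hexamer, whose density in each of the 4 genes is counted below. The core searched was TNAAAC on the sense strand (N is any base), which contains TTAAAC, the hexamer best known for Mmi1 binding. For each gene the 150-base coding window with the most matches is printed from the plus strand of ASM294v3, matches in capitals: mei4 at II:1473862-1474011, rec8 at II:2570114-2570263, spo5 at II:2537478-2537627 and rep1 at II:2977964-2978113.
mei4: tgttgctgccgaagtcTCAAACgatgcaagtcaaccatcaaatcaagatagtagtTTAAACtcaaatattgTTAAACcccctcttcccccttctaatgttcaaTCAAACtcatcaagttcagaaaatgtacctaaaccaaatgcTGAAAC
rec8: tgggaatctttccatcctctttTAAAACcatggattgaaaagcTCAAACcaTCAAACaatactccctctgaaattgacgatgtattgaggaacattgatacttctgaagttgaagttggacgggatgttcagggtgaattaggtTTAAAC
spo5: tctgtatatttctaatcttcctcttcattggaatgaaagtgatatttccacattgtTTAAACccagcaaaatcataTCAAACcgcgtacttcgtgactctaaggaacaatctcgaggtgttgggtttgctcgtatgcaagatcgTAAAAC
rep1: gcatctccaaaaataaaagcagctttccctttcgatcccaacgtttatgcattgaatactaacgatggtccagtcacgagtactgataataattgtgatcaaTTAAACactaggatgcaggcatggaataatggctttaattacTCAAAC

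Over the whole gene, mei4 held 11 matches (4.96 per 1000 bases), rec8 held 16 (7.78), rep1 held 12 (5.60) and spo5 held 14 (6.65), against a median of 1.67 per 1000 bases over the 894 measured protein-coding genes. That placed them at the 98.1, 99.4, 98.4 and 99.3 percentile of those genes, although 90.0% of the 894 genes held at least 1 match. On the antisense strand the counts were 10, 6, 4 and 4. The matches were clustered to different degrees: 1 of 873 genes long enough for the window (0.115%) had a window with at least the 5 matches of mei4, 7 (0.802%) the 4 of rec8, 48 (5.50%) the 3 of spo5 and 263 (30.1%) the 2 of rep1. Each count includes the member itself, so the 1 gene is mei4. The members' GC content was ordinary (35.3% to 36.9%, median of the 894 genes 36.9%). These matches describe the sequence, and none was tested as a binding site here.

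**Figure D1:**
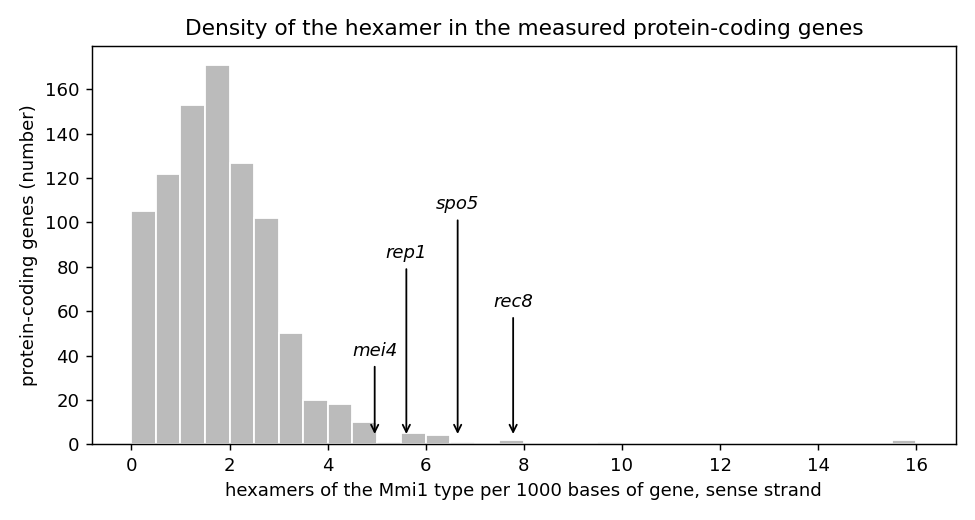
Number of measured protein-coding genes (vertical axis) by their density of the TNAAAC hexamer on the sense strand, in matches per 1000 bases of gene (horizontal axis), with arrows at the 4 meiotic genes. The arrows stand at 4.96 (mei4), 5.60 (rep1), 6.65 (spo5) and 7.78 (rec8), to the right of the median of 1.67.

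The 250 bases before the annotated start were also searched on both strands for 3 motifs known from meiotic control in this yeast: ACGCGT (the MluI cell-cycle box read by MBF), GTAAACA (a forkhead motif) and TTCTTTG (the core of the box read by Ste11, the activator of early meiosis). The windows are not alike: rec8 is annotated with a 5′ UTR of 0 bases, so its window ends at the coding sequence. Those of spo5, mei4 and rep1 end at 5′ UTRs of 71, 126 and 468 bases. Upstream of rec8 ACGCGT occurred 2 times, and it was found in 2.68% of the 894 upstream windows. Upstream of mei4 there was 1 GTAAACA and upstream of rep1 there were 2, in addition to 2 of TTCTTTG, motifs found in 15.7% and 7.72% of windows. The spo5 window held 0 of the 3 motifs. The rec8 window (II:2568688-2568937, plus strand, ACGCGT in capitals) is printed because it lies in the 1 kb flank with the highest wild-type mean of the 8 flanks (0.71, beside 0.69 downstream of mei4, on the scale explained next).
rec8 upstream: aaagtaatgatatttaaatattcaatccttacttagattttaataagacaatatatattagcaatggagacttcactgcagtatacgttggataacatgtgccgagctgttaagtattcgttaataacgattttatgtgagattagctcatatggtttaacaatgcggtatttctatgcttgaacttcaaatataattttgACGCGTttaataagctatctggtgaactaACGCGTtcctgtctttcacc

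New H3 is given as the log2 ratio of ChIP (Cy5) to whole-cell extract DNA (Cy3, the input) processed intensity, centred on the median of each array and averaged over probes, so that 0 is the typical probe of an array and a gene's length does not enter. Because the scale is relative, a level says nothing about the total amount of new H3 in a strain. At rep1 the wild-type arrays read 0.31, 0.33 and 0.48, the fft3Δ arrays 0.49 and 0.57, the clr3Δ array 0.37 and the double deletion array 0.24. At rec8 they read 0.17, 0.38 and 0.32 in wild type, 0.22 and 0.49 in fft3Δ, 0.42 in clr3Δ and 0.05 in the double deletion. Both genes stood above the array median in all 7 arrays, with their lowest values in the double deletion. The share of all genes lowest on that array was not computed, but it was 24.7% of all bins of 250 bases.

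At mei4 the values were 0.23, 0.30 and 0.16 in wild type, 0.33 and 0.17 in fft3Δ, 0.16 in clr3Δ and 0.28 in the double deletion, and the arrays of all genotypes overlapped. At spo5 they were 0.15, 0.21 and 0.12 in wild type, 0.06 and 0.17 in fft3Δ, 0.05 in clr3Δ and 0.12 in the double deletion. The wild-type means were 0.38 ± 0.09 for rep1, 0.29 ± 0.11 for rec8, 0.23 ± 0.07 for mei4 and 0.16 ± 0.05 for spo5 (SD, n = 3 arrays). In this order the neighbours did not separate beyond their spread, except that mei4 was above spo5 on 7 of 7 arrays. The gene rec8 was above rep1 on 2 of 7 arrays, and mei4 was above rec8 on 3 of 7. Among the 894 protein-coding genes, whose wild-type median was 0.05, rep1 lay at the 85.7 percentile, rec8 at 79.5, mei4 at 73.3 and spo5 at 65.9. Over single arrays the 4 genes ranged from the 52.9 to the 90.7 percentile.

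The constitutive regions of the same chromosome lay far from the meiotic genes in wild type. The outer repeats of centromere 2 read -1.38, -1.46 and -1.27 on the wild-type arrays, -1.04 and -1.36 in fft3Δ, -0.22 in clr3Δ and 0.54 in the double deletion. The right subtelomere read -0.55, -0.74 and -0.61 in wild type, -0.16 and -0.19 in fft3Δ, -0.04 in clr3Δ and 0.32 in the double deletion. Each of the 4 genes was above both regions on 6 of 7 arrays and below both on the double deletion array. The central core of centromere 2, where most H3 is replaced by the centromeric variant, averaged -3.03 ± 0.32 in wild type (SD, n = 3) and -2.22 in the double deletion, and each gene was above it on all 7 arrays.

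The mean of the 4 genes was 0.26 ± 0.05 in wild type (SD, n = 3), 0.31 in fft3Δ, 0.25 in clr3Δ and 0.17 in the double deletion. Over the same genotypes the outer repeats went from -1.37 to -1.20, -0.22 and 0.54. The gap between a gene and the subtelomere differed in fft3Δ from that in wild type by between -0.31 (rep1) and -0.51 (spo5) on the log2 scale. The fft3Δ and wild-type arrays did not overlap for any gene (exact permutation p = 0.2 for each, two-sided, the smallest this design allows). All 4 gaps contain the same subtelomere values, which did not overlap either and were 0.46 higher in fft3Δ. The 4 gaps are therefore not separate results about the genes, and the share of all genes with such a gap was not computed. The gap to the outer repeats differed by between -0.02 (rep1) and -0.22 (spo5), with exact permutation p from 0.4 to 1. In the double deletion the gap to the outer repeats differed from that in wild type by -1.85 (mei4) to -2.15 (rec8), on 1 array and so without a test. Of the repeat probes 94.7% and of the subtelomere probes 82.4% match several places in the reference, so those levels are averages over copies.

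**Figure D2:**
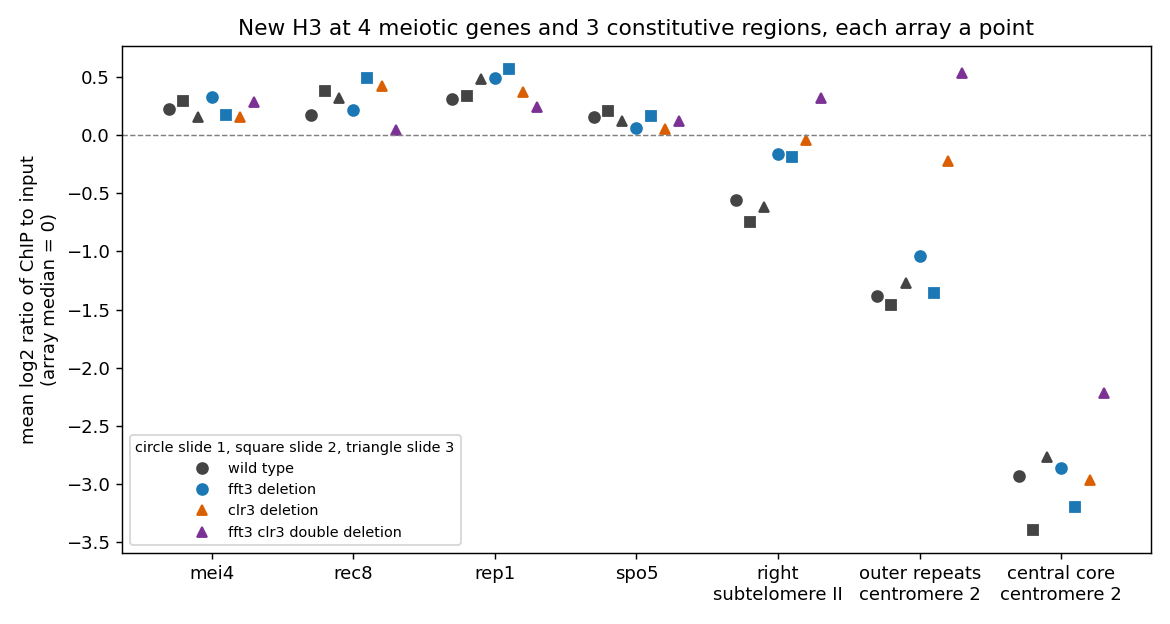
Mean log2 ratio of ChIP to input (vertical axis, array median at 0) for the 4 meiotic genes and 3 constitutive regions of chromosome II (horizontal axis), each point 1 array, coloured by genotype and shaped by slide. The genes stay between 0.05 and 0.57 on all arrays, while the outer repeats run from -1.46 in wild type to 0.54 in the double deletion.

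New H3 was not even along mei4 and rec8. Across mei4 new H3 climbed from the 5′ to the 3′ side: the 1 kb upstream, shared with the transcription kinase gene cdk9, read 0.08, -0.04 and -0.17 in wild type. The first part of the coding sequence averaged 0.08 ± 0.08, the last part 0.27 ± 0.18 and the 3′ UTR 0.46 ± 0.09 (SD, n = 3). The 1 kb downstream, which runs into the actin gene act1, read 0.72, 0.76 and 0.58 in wild type, above the gene body on each of these arrays. In bins of 250 bases over the gene and its flanks the wild-type mean went from -0.10 to 0.79. The highest bin lay 2250 to 2500 bases from the gene's start, past its end at 2218 bases. From the gene's first bin to the bin that holds its end the wild-type mean went from -0.0051 to 0.50.

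The profile of rec8 ran the other way. Its upstream 1 kb, toward the ATP synthase subunit gene atp7, read 0.65, 0.67 and 0.80 in wild type, the first part of the coding sequence averaged 0.38 ± 0.11 and the last part 0.22 ± 0.18. The downstream 1 kb, in the origin recognition gene orc1, read 0.11, -0.17 and 0.11. The highest bin, 0.76 in the wild-type mean, lay 500 to 250 bases before the start, and the printed upstream window averaged 0.66 ± 0.11 (SD, n = 3). Among upstream windows of protein-coding genes that of rec8 lay at the 94.7 percentile, and among downstream windows that of mei4 lay at the 94.8.

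The profile of rep1 dipped inside the gene, from 0.69 in the bin 750 to 500 bases before the start to 0.18 in the bin 750 to 1000 bases after it. Its upstream 1 kb, in the glucanase gene exg3, averaged 0.58 ± 0.11 and its downstream 1 kb 0.41 ± 0.07. Along spo5 the wild-type bins stayed between 0.04 and 0.21, and its flanks averaged 0.07 ± 0.08 and 0.14 ± 0.03 (SD, n = 3). Of the neighbouring genes, whose probes are partly those of the flanks, act1 averaged 0.51 ± 0.27, atp7 0.66 ± 0.04, exg3 0.65 ± 0.14, orc1 0.05 ± 0.08, and ccr1, upstream of spo5, 0.00 ± 0.07. DNA fragments of 500 to 1000 bases blur each edge over several probes, and 1951 of the 2219 genes have probes in common with a neighbour.

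Over the printed coding windows, of 3 probes each, the wild-type level was 0.19 ± 0.20 in mei4, 0.16 ± 0.17 in rec8, 0.14 ± 0.05 in spo5 and 0.52 ± 0.23 in rep1 (SD, n = 3). The window with the fewest hexamers, that of rep1, was thus the highest, and the SDs of the others exceed the distances between them. At the 5′ ends single arrays differed more: the 3 probes of the mei4 5′ UTR read -0.27 and -0.23 on the wild-type and fft3Δ arrays of slide 2, against -0.10 to 0.24 on the other 5 arrays. The rep1 5′ UTR read -0.08 on the wild-type array of slide 2 and 0.43 and 0.42 on the other wild-type arrays, while the fft3Δ array of that slide read 0.42.

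**Figure D3:**
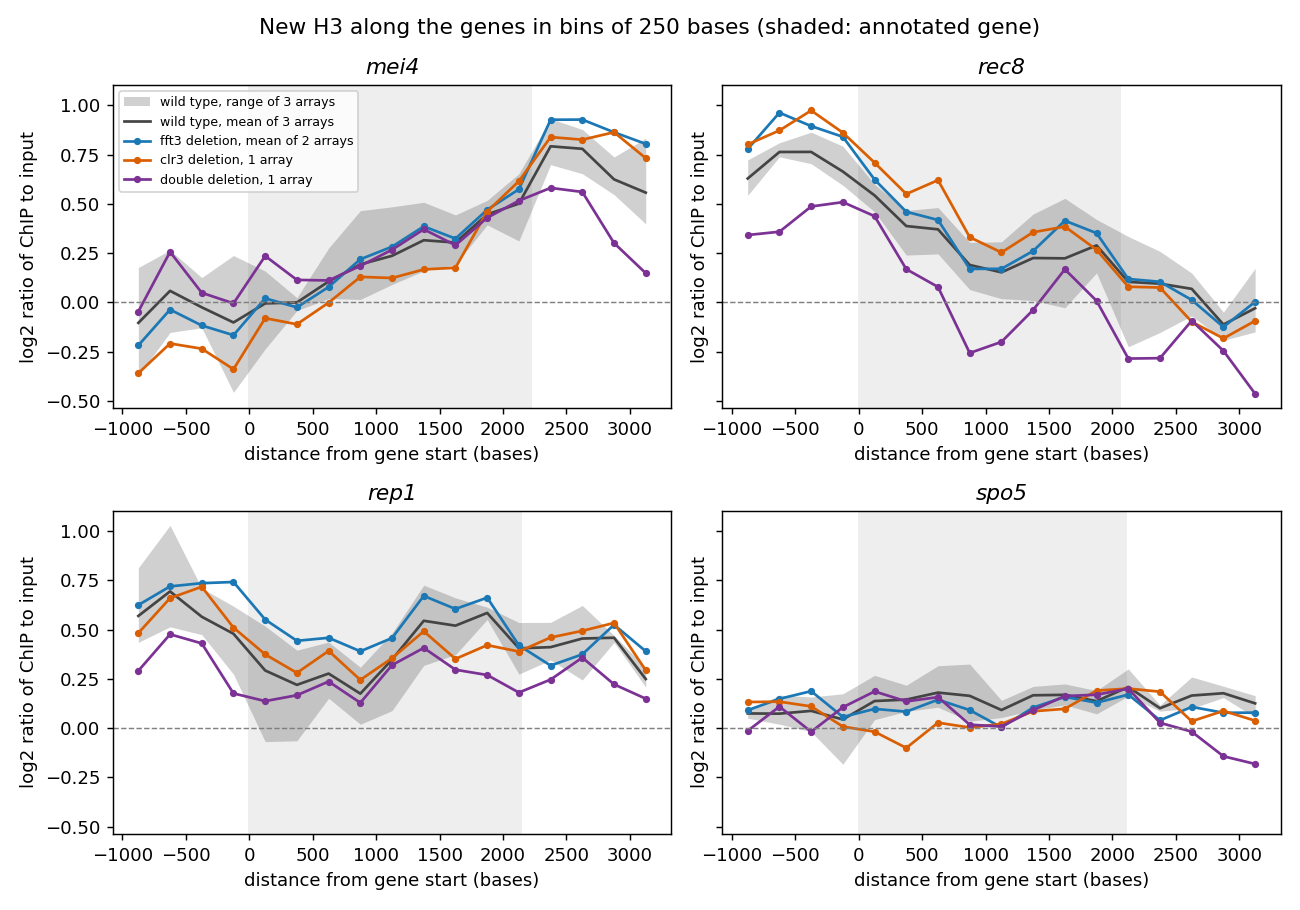
Log2 ratio of ChIP to input (vertical axis) in bins of 250 bases by distance from the gene's start (horizontal axis, bases) for the 4 genes, the gene shaded: wild-type mean and range of 3 arrays, fft3Δ mean of 2 arrays, and the single clr3Δ and double deletion arrays. With flanks included, wild-type levels rise across mei4 from -0.10 to 0.79, fall across rec8 from 0.76 and stay between 0.04 and 0.21 across spo5. The end values named for mei4 and rec8 lie in the flanks.

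Loss of Fft3 alone gave no called difference at any of the 4 genes. The differences from wild type were 0.15 ± 0.11 at rep1, 0.06 ± 0.12 at rec8, 0.02 ± 0.11 at mei4 and -0.05 ± 0.10 at spo5 (limma, SE, 3 against 2 arrays, adjusted p = 0.999 for each). Over all 2219 genes limma called 0 (0.0%) in this comparison, where a call means an adjusted p (Benjamini-Hochberg) under 0.05, and 71 had an unadjusted p under 0.05, with 0 members among them. The 95% intervals in linear terms ran from 0.939 to 1.32 of the wild-type ratio at rep1, 0.854 to 1.27 at rec8, 0.856 to 1.21 at mei4 and 0.823 to 1.14 at spo5.

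Only rep1 of the 4 had fft3Δ arrays that did not overlap wild type, and 18.0% of all genes showed such a separation in either direction. On both shared slides fft3Δ was the higher array at rep1, by 0.18 on slide 1 and 0.23 on slide 2 (exact permutation p = 0.2, two-sided). The within-slide differences at rec8 were 0.04 and 0.11, those at spo5 -0.09 and -0.04, and those at mei4 had opposite signs, 0.11 and -0.13. In the flanks, where 17.3% of upstream and 15.5% of downstream windows separated, the upstream kilobase of rec8 read 0.86 and 0.88 in fft3Δ (difference 0.16 ± 0.11, SE) and the downstream kilobase of mei4 0.87 and 0.87 (0.18 ± 0.11). With arrays scaled to equal spread these differences were 0.06 and 0.08. Unscaled, these 2 of the 8 flanks stood above all 3 wild-type arrays, and 0 of the 8 flanks were called, as were 0 (0.0%) of all flanks.

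Loss of Clr3, measured on 1 array, was compared through limma's shared estimate of spread, which assumes that a single array varies like those of the other groups. The differences from wild type were 0.13 ± 0.16 at rec8, -0.0047 ± 0.13 at rep1, -0.07 ± 0.14 at mei4 and -0.11 ± 0.13 at spo5 (SE, adjusted p between 0.992 and 0.995). This comparison called 31 genes (1.40%), all of them higher in clr3Δ, and 0 of the 4 members, none of which had an unadjusted p under 0.05. The clr3Δ value lay above all wild-type arrays at rec8 and below them at spo5, and on that array 48.7% of all genes lay outside the wild-type range and 27.2% below it. Of the 8 flanks 0 were called, against 1.22% of all upstream and 1.35% of all downstream windows. Within slide 3, which carried wild-type array 3 as well, clr3Δ differed from it by 0.10 at rec8, 0.00 at mei4, -0.07 at spo5 and -0.11 at rep1.

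None of the 4 genes passed the test in the double deletion. The difference from wild type was -0.25 ± 0.16 at rec8, -0.13 ± 0.13 at rep1, -0.04 ± 0.13 at spo5 and 0.06 ± 0.14 at mei4 (limma, SE, adjusted p between 0.612 and 0.950). This comparison called 93 genes (4.19%), 69 higher (3.11%) and 24 lower (1.08%), and 0 members, none with an unadjusted p under 0.05. The double deletion array lay below all wild-type arrays at rec8 and rep1. Of all genes 60.8% lay outside the wild-type range on that array and 38.4% below it. In the flanks 0 of 8 were called, against 4.01% of all upstream and 4.33% of all downstream windows. The interval at rec8, which had the most negative estimate, ran from 0.655 to 1.08 of the wild-type ratio, so the arrays leave room for a fall of that size as well as for none.

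**Figure D4:**
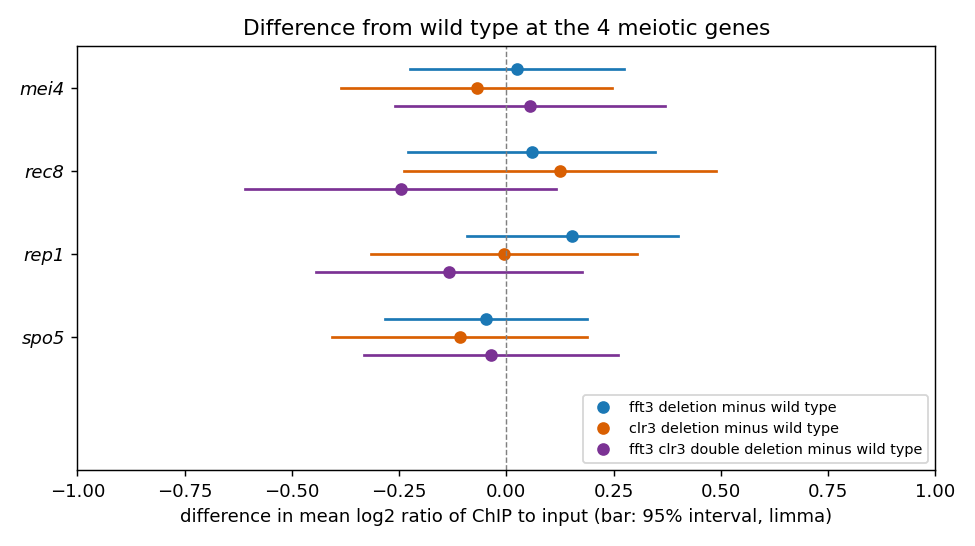
Difference in mean log2 ratio of ChIP to input from wild type (horizontal axis) for each meiotic gene (vertical axis) in fft3Δ, clr3Δ and the double deletion, with points at the limma estimate and bars at the 95% interval. All 12 bars cross 0, and the most negative estimate is -0.25, at rec8 in the double deletion.

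Of 17 bins of 250 bases across rec8 and its flanks, the double deletion array was below all 3 wild-type arrays in 16 and below all other 6 arrays in 14. Of all such bins on the array 34.2% lay below the wild-type range and 24.7% below all other 6 arrays. At rep1 it was below the 3 wild-type arrays in 10 of 17 bins, at spo5 in 8 and at mei4 in 4, with 2 bins of mei4 above them. Neighbouring bins share fragments, so these counts are not independent measurements.

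Against clr3Δ, its partner on slide 3, the double deletion differed by -0.37 ± 0.19 at rec8 (unadjusted p = 0.090, adjusted p = 0.729 in limma), -0.13 ± 0.17 at rep1, 0.07 ± 0.16 at spo5 and 0.12 ± 0.17 at mei4 (SE). That comparison called 2 genes (0.0901%), both lower, and 0 members. In the upstream kilobase of rec8 the difference was -0.45 ± 0.17 (unadjusted p = 0.027, adjusted p = 0.576), from 0.88 to 0.42, and in the downstream kilobase of mei4 it was -0.39 ± 0.17 (adjusted p = 0.696), from 0.80 to 0.42. These flanks had the highest wild-type levels of the 8. The double deletion array was the lowest of 7 in 6 of the 8 flanks, the exceptions being the upstream flanks of mei4 and spo5, and in 26.7% of all upstream and 27.3% of all downstream windows. Below the wild-type range lay 33.7% of all upstream and 35.0% of all downstream windows.

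The interaction asks whether removing Fft3 changed new H3 differently with and without Clr3. It was -0.43 ± 0.23 at rec8 (unadjusted p = 0.098, adjusted p = 0.728), -0.28 ± 0.20 at rep1, 0.10 ± 0.20 at mei4 and 0.12 ± 0.19 at spo5 (limma, SE). Over all genes 0 of 2219 (0.0%) were called and 139 had an unadjusted p under 0.05, with 0 members among them. In the flanks it was -0.62 ± 0.20 upstream of rec8 (unadjusted p = 0.015, adjusted p = 0.590) and -0.57 ± 0.20 downstream of mei4 (unadjusted p = 0.022, adjusted p = 0.707). Upstream of mei4 the interaction went the other way, 0.42 ± 0.23 (SE). At the remaining flanks it lay between -0.38 (upstream of rep1) and -0.06 (downstream of spo5). Of all windows 6.36% upstream and 6.32% downstream had an unadjusted p under 0.05 for the interaction.

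The double deletion array had the smallest spread of all probes, an SD of 0.40 against 0.45 to 0.60 on the other arrays, and over all protein-coding genes its difference from wild type was the more negative in windows of high level. Protein-coding genes were ranked by fft3Δ level and split into 10 equal bands, and the median difference was -0.30 in the top band and 0.06 in the bottom one. For upstream windows these medians were -0.33 and 0.17. Among the 89 upstream windows in the same band as that of rec8 the median difference from wild type was -0.33, beside -0.28 for rec8, and among the 89 downstream windows in the band of mei4 it was -0.30, beside -0.27 for mei4. The body of rec8 (-0.25) lay between the 10th percentile, -0.39, and the median, -0.14, of the 88 genes at its level. Most windows of the members lay between the 10th and 90th percentile of their band, against wild type as against clr3Δ. The exceptions were the following. From wild type the downstream kilobase of rec8 differed by -0.27, with a 10th percentile of -0.24. Against clr3Δ the body of rec8 differed by -0.37, with a 10th percentile of -0.35, and the upstream kilobase of mei4 by 0.33, with a 90th percentile of 0.29. Such a range leaves out the outermost windows of any band by definition, so a few exceptions do not set the members apart. Scaling all arrays to equal spread used the median absolute deviation of the probes, not the SD given above. On that scale the difference of the double deletion at rec8 was -0.24 from wild type and -0.39 from clr3Δ. Both were close to the unscaled -0.25 and -0.37. Upstream of rec8 the scaled difference from wild type was -0.24 and downstream of mei4 -0.23, against -0.28 and -0.27 unscaled.

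Called genes were found at some distance from the members. In the double deletion the nearest to mei4 was SPNCRNA.5193, 17.4 kb away, the nearest to spo5 was ish1 at 17.4 kb and the nearest to rec8 was SPNCRNA.1533 at 29.8 kb. The nearest to rep1 was SPNCRNA.5917, 5.69 kb away, with a difference from wild type of -0.90 (limma adjusted p = 0.00696). In clr3Δ the nearest called gene to any member was 127 kb away, SPNCRNA.359 for mei4.

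For each member the 2 protein-coding genes with the most similar levels were sought. Likeness was the root mean square difference of the gene levels over 7 arrays, among 853 to 855 genes with at least 10 probes that lie more than 5 kb away. The closest to rec8 was klp9, a mitotic kinesin, at 0.02, and next SPBC3E7.11C at 0.06, against a median of 0.35 for all candidates. The closest to mei4 were arf1, a small GTPase of vesicle transport, at 0.04 and pga2 at 0.06 (median 0.30). The closest to spo5 were fma2, a methionine aminopeptidase, and the monopolin gene mde4, both at 0.04 (median 0.25). The gene mde4 is one of the listed genes counted next. The closest to rep1 were met3, the ATP sulfurylase of sulphate assimilation, and coq7, of ubiquinone synthesis, both at 0.08 (median 0.41).

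Of the other genes on lists tied to meiosis, 34 were measured. The lists are not confined to genes that are silent in growing cells. They also hold regulators such as rep2, and pab2, pir2 and red5, which act in removing meiotic transcripts. Of the 34 genes, 0 were called in fft3Δ, clr3Δ or the double deletion against wild type, or in the double deletion against clr3Δ. The shares called over all genes were 0.0%, 1.40%, 4.19% and 0.0901%, so 0 of 34 is near the background. Their wild-type levels ran from -0.41 (mde3, a kinase gene induced in meiosis) and -0.39 (rep2, the mitotic counterpart of rep1) to 0.69 (rsv1) and 0.81 (mug124), with a median of 0.02. In fft3Δ 16 of 34 differences were above 0, with a median of -0.0043, a highest value of 0.27 (mug98) and a lowest of -0.19 (res1, a DNA-binding subunit of MBF). In clr3Δ 14 of 34 were above 0 and the median was -0.06. In the double deletion 18 of 34 were above 0 and the median was 0.00, with the lowest at mug124 (-0.52), the recombination gene rec14 (-0.52, adjusted p = 0.10 in limma) and rsv1 (-0.40) and the highest at meu18 (0.38). All 34 are protein-coding, and over all protein-coding genes the medians of these differences were -0.01 in fft3Δ, -0.04 in clr3Δ and -0.07 in the double deletion. Over all 2219 genes, noncoding ones included, they were 0.01, -0.03 and -0.04.

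By role, the 7 other regulators (atf21, cdc10, pat1, rep2, res1, rsv1, yox1) had a median difference of -0.15 in fft3Δ, -0.12 in clr3Δ and 0.01 in the double deletion. The 7 recombination and cohesion genes beside rec8 had medians of 0.04, -0.11 and -0.04, and the 3 spore formation genes beside spo5 -0.12, -0.13 and -0.16. Of genes that act in removing meiotic transcripts pab2, pir2 and red5 were measured, with medians of -0.06, -0.03 and 0.03. The list of 17 candidate targets of Mmi1 had 4 measured genes, mei4, rec8, spo5 and the meiotic cyclin gene rem1. At rem1 new H3 averaged -0.18 ± 0.10 in wild type (SD, n = 3), below all 4 members, and differed by -0.14 in fft3Δ, -0.16 in clr3Δ and -0.15 in the double deletion, none of them called.

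The input channel itself differed between the members, as the denominator of every ratio. Centred on the array median, log2 input in wild type was 0.52, 0.62 and 0.57 at mei4, 0.19, 0.28 and 0.05 at spo5, -0.17, -0.35 and -0.01 at rec8 and -0.37, -0.31 and -0.34 at rep1. The order of input was the reverse of the order of the ratio for rep1, rec8 and mei4, while spo5, with the second highest input, had the lowest ratio. Input also differed between arrays: at mei4 it read 0.50 and 0.82 in fft3Δ, 0.55 in clr3Δ and 0.35 in the double deletion. On the double deletion array it read 0.18 at spo5, -0.26 at rec8 and -0.31 at rep1. The part of input in the genotype comparisons was not tested. No dye swap was made, so a constant dye bias of a probe would remain in its level, though not in a comparison of genotypes, and its part in the order of the genes was not tested.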

How the data were processed

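New H3 was measured on 7 two-colour Agilent arrays. The deposited processed signals are intensities that had background subtracted and a linear dye normalization, per the file headers, by Agilent Feature Extraction (named in the submitters' processing notes; slide 1 was read with version 10.7.3.1, and the headers of slides 2 and 3 give 12.0.3.1), which removes any difference in total new H3. Deposited log2 values of the series table equalled the log2 ratio of these signals, uncentred, with column medians of -0.037, 0.018 and -0.0014 (wild type), -0.042 and 0.0017 (fft3Δ), -0.029 (clr3Δ) and -0.043 (double deletion). The deposited log10 ratios were used only as a check and differed from the signals' own log10 ratio by at most 0.355. Flags of 0 or 1 came from the deposited files. The genome build of the probe coordinates was not given in the sources used here.

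For placement on ASM294v3, file coordinates were shifted by 900 bases left and 1800 bases right of centromere 2. Within 20 kb of each gene, the correlation of input with GC content was 0.659 to 0.730 at that shift and at most 0.406 at any other. Log2 ratios without flagged spots (4 to 929 an array) were centred on the array median and averaged over the probes of each gene or 1 kb flank with at least 2 probes. All genes were fitted with limma 3.58.1 (R 4.3.3), a mean per genotype over 7 arrays, Benjamini-Hochberg adjusted over all genes, called under 0.05, after a test on simulated data. Single values of fft3Δ against wild type had an exact two-sided permutation over 10 splits (the smaller tail doubled), which cannot go below 0.2. Slide 1 and slide 2 held 1 array each of wild type and fft3Δ, and slide 3 the rest. Deviations of the paired arrays from their group means had a correlation over genes of 0.564 on slide 1 and 0.323 on slide 2. With only 2 fft3Δ arrays their deviations mirror each other. The same wild-type arrays therefore gave -0.564 and -0.323 with the fft3Δ array of the other slide, and the values of the slides are not independent. Array number limits the precision: between 99.4% and 100.0% of ChIP spots were well above background and 0 were saturated.

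The members, the gene lists and the tests were chosen with earlier results of these data known. Named genes were the members, genes overlapping them or their flanks, the 2 most alike to each, and the extremes of the lists. Alternatives covered background correction, normalization, probe summary and filters, slide, variance model, flank width and left-out arrays. Normexp used median spot signals in place of means. The genes fft3 and clr3 were not used here, so the deletions were not checked on the arrays.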

Additional observations from a re-analysis of the deposited data

How the results depend on the processing

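Under 17 alternatives and for 28 differences at the members and their 2 highest flanks, 0 were called, and the smallest adjusted p was 0.125 in limma (upstream of rec8, interaction, slide as a random block). Of 476 such values 461 kept their sign and 15 changed it. The counts of members and flanks called were 0 throughout.

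With slide as a replicate block (wild type and fft3Δ arrays paired on slides 1 and 2), mei4 differed by -0.011 in fft3Δ and 0.0013 in clr3Δ, and spo5 by 0.0065 in the double deletion, each the other sign than without the block. The paired fit changed no call and no other sign at the gene bodies. The interaction went from -0.43 to -0.45 at rec8 and from -0.62 to -0.66 upstream of rec8. The double deletion still differed from clr3Δ by -0.37 at rec8. These values had lower unadjusted p-values in limma with the block than without it, so those printed above depend on leaving slide out. Downstream of mei4 the interaction went from -0.57 to -0.52. In the flanks the sign also turned downstream of rec8 in fft3Δ (-0.012 to 0.034) and downstream of rep1 in fft3Δ (-0.013 to 0.026). It turned as well downstream of rep1 in clr3Δ (0.043 to -0.037) and upstream of spo5 in clr3Δ (0.031 to -0.028). Arrays scaled to equal spread gave -0.0034 for mei4 in fft3Δ. At rep1 in clr3Δ the sign turned with normexp (0.032), quantile normalization (0.0055), equal spread (0.011) and the median over probes (0.0085), and at mei4 in the double deletion with the median over probes (-0.00060). Leaving out 1 array gave -0.056 to 0.11 for mei4, -0.079 to 0.20 for rec8 and -0.10 to 0.0072 for spo5 in fft3Δ, and -0.036 to 0.048 for rep1 in clr3Δ: the sign turned without fft3Δ array 1 or wild-type array 3 at mei4, wild-type array 1 or fft3Δ array 2 at rec8, fft3Δ array 1 at spo5 and wild-type array 3 at rep1. Loess within arrays lowered the wild-type level of mei4 to 0.147 and of spo5 to 0.111.

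Counts over all genes moved more, and the cause was not tested. In fft3Δ (0 in the report) they were 3 with slide as a random block and 0 to 6 with 1 array left out (6 without wild-type array 1). In clr3Δ (31) they were 19 with trend and robust variance, 2 with probes found once, 51 with the random block and 32 to 55 with 1 array left out (55 without wild-type array 2). In the double deletion (93) they were 61 with at least 10 probes, 19 with probes found once, 141 with the random block and 80 to 113 with 1 array left out. Against clr3Δ (2) they were 36 with quantile normalization, 29 with the random block and 0 to 3 with 1 array left out (0 without either fft3Δ array). For the interaction (0) they were 14 with quantile normalization, 2 each with at least 10 probes, loess, normexp and the random block, and 0 to 2 with 1 array left out (2 without wild-type array 2).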
